A study of Rattus norvegicus with 6 samples.

Results

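The genes described here serve lipid uptake, storage and efflux and are best known from macrophages; they were measured in the livers of 6 male rats. The 8 genes are Fabp4, Lpl, Pla2g7, Msr1, Cd36, Abca1, Abcg1 and Plin2, out of 15645 genes that could be named on the array and 11939 that were tested. They were chosen by their role and with their measured difference between the treatment groups known, so their values in the groups are a description and no test is drawn from them. The symbols were matched through RefSeq accessions to 11 probes, 3 for Cd36, 2 for Lpl and 1 for each of the others, and all 11 probes passed the filter on dim signals.

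Liver RNA came from 3 rats dosed with CCl4 (carbon tetrachloride, 100 mg/kg/day) and from 3 rats given corn oil, the vehicle. All were Sprague-Dawley (Crl:CD(SD)) males, 5 weeks old at purchase, and each animal gave 1 single-colour Agilent array. CCl4 is a solvent that hepatocyte cytochrome P450 turns into radicals and that is used to injure and scar rodent liver. The labels give 2 lengths of exposure, 28 days in the series design and 9 weeks in the treatment protocol, and the arrays cannot tell which applies.

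Macrophages take up modified lipoproteins through scavenger receptors such as those encoded by Msr1 and Cd36, release fatty acids from triglyceride with lipoprotein lipase, carry them on fatty acid binding proteins, and keep neutral lipid in droplets coated with perilipins. Surplus cholesterol leaves through the ABC transporters ABCA1 and ABCG1, whose genes are switched on by the oxysterol-sensing liver X receptors (LXR). Several of these genes are not restricted to macrophages. Hepatocytes also use Plin2, Cd36 and Abca1, endothelial cells use Fabp4 and Cd36, and adipocytes use Fabp4, Cd36 and Lpl. In whole liver, fewer cells of a type and less RNA per cell cannot be told apart.

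Levels are log2 processed signals relative to each array's own 75th percentile, which was 582.6 to 675.6 signal units, and 61.9% to 67.3% of probes were well above background on an array. The tissue label was checked on 7 hepatocyte markers, Alb among them, all of which were measured. Their summed relative signal was 4468 to 5092 times the 75th percentile in CCl4 livers and 5494 to 5899 times in corn oil livers. The first slide carried CCl4 replicate 1 and the 3 corn oil arrays, and the second slide carried CCl4 replicates 2 and 3. For this reason each member is also given within the first slide, where 1 CCl4 animal stands against 3 corn oil animals.

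Fabp4, Pla2g7 and Lpl stood far apart between the groups, Abcg1 stood apart by a smaller amount, and Msr1, Cd36 and Abca1 overlapped. Plin2 was the member that lay lower in CCl4 livers, with groups that all but touched. In the fit over all genes (limma with Benjamini-Hochberg adjustment), 3 of the 8 members, namely Fabp4, Pla2g7 and Lpl, were past the threshold of 0.05 and higher in CCl4 livers, where 0.561% of all genes tested were, and nothing is read from this count because the same contrast chose the members. The count was 0 within the first slide, with the slide as a fixed block and without CCl4 replicate 2. It was 1 (Pla2g7) without CCl4 replicate 1 or corn oil replicate 3, and 2 (Fabp4 and Pla2g7) without corn oil replicate 1 or 2. Within the first slide 0 of all genes passed in limma, with 1598 at an unadjusted p below 0.05. The groups did not overlap for 4 members with higher and 1 with lower values in CCl4 livers, against 11.5% and 15.9% of all genes, or 27.4% in either direction. Counted by probe, the groups did not overlap on 6 of the 11 probes, against 25.4% of all probes above the filter. The median difference (CCl4 minus corn oil, log2) was 0.51 over the 8 members and -0.05 over all genes tested.

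**Figure D1:**
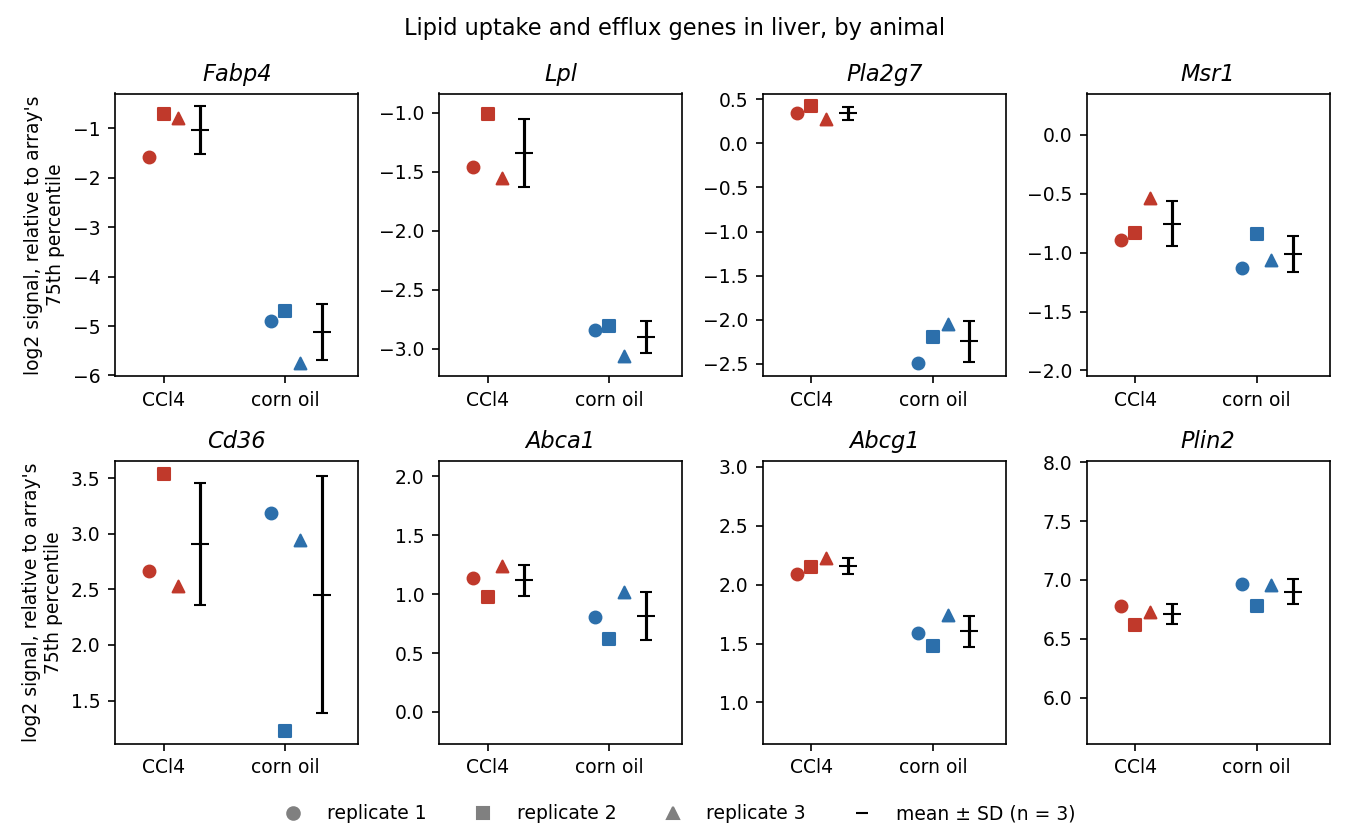
Log2 signal relative to the array's 75th percentile (vertical axis, each panel with its own range) of the 8 genes on their brightest probes in CCl4 livers (red, left) and corn oil livers (blue, right), with 1 symbol per animal and black bars for the mean ± SD (n = 3). The groups are separated for Fabp4, Lpl, Pla2g7 and Abcg1, nearly touch for Plin2, and overlap for Msr1, Cd36 and Abca1.

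Of the receptors for modified lipoproteins, Msr1 and Cd36 overlapped between the groups. Msr1, the class A scavenger receptor of macrophages, was at -0.89, -0.83 and -0.54 in CCl4 livers and at -1.13, -0.84 and -1.06 in corn oil livers. CCl4 replicate 3 was the highest of the 6 animals, and corn oil replicate 2 lay between CCl4 replicates 1 and 2, so that the groups overlapped. The difference was 0.26 ± 0.14 (SE, n = 3 per group), or 1.19-fold, and 0.12 within the first slide. Leaving out 1 animal at a time gave 0.15 to 0.34.

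Cd36, a receptor for oxidised lipoproteins and long-chain fatty acids, varied more between animals of 1 group than between the groups. On its brightest probe it was at 2.67, 3.54 and 2.53 in CCl4 livers and at 3.19, 1.23 and 2.94 in corn oil livers. Corn oil replicate 2 was the lowest animal by a wide margin, CCl4 replicate 2 was the highest, and the other 4 lay within the span between them. In signal units corn oil replicate 2 had 1392, against 5462 and 4472 in the other corn oil animals. Of 11101 genes well above background on every array, 109 had a larger SD than Cd36 among the corn oil animals (SD 1.07, where the median gene had 0.16), and 569 had a larger SD among the CCl4 animals (SD 0.55).

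The other probes of Cd36 placed the animals in the same way. The second probe was at 0.34, 1.17 and 0.37 in CCl4 livers and at 0.98, -0.36 and 0.58 in corn oil livers. The third was at -0.58, 0.34 and -0.36 in CCl4 livers and at 0.02, -1.35 and -0.29 in corn oil livers. On all 3 probes corn oil replicate 2 was the lowest animal and CCl4 replicate 2 the highest. The difference was 0.46 ± 0.56, 0.23 ± 0.39 and 0.34 ± 0.40 on the 3 probes in turn, less than its standard error each time. Without corn oil replicate 2 it was -0.15 ± 0.33 on the brightest probe, so the sign rested on that animal, and within the first slide it was 0.21.

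**Figure D2:**
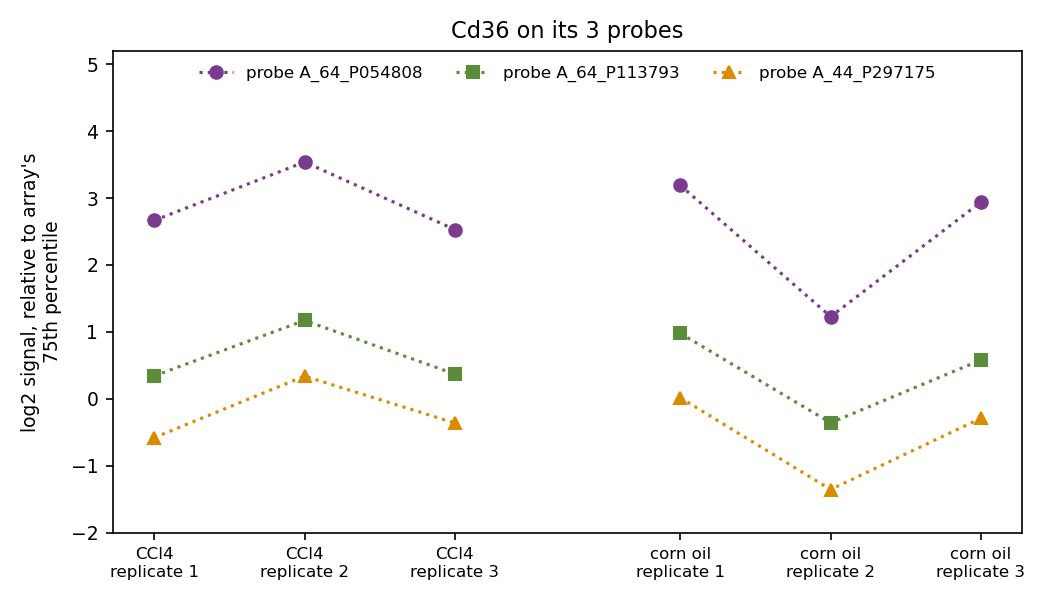
Log2 signal of Cd36 relative to the array's 75th percentile (vertical axis) in each animal (horizontal axis) on its 3 probes (1 colour and symbol each; dotted lines join the animals of a group on 1 probe and show no order). Each probe puts corn oil replicate 2 lowest and CCl4 replicate 2 highest.

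Lpl encodes lipoprotein lipase, the secreted enzyme that frees fatty acids from lipoprotein triglyceride and that adult hepatocytes make little of. On its brighter probe it was at -1.46, -1.01 and -1.55 in CCl4 livers and at -2.84, -2.81 and -3.06 in corn oil livers. Every CCl4 animal lay above every corn oil animal, by at least 1.26, which exceeds the range of 0.54 among CCl4 livers and of 0.26 among corn oil livers. The difference was 1.56 ± 0.17, or 2.95-fold, and 1.44 within the first slide. The second, dimmer probe was at -3.42, -3.02 and -3.34 in CCl4 livers and at -4.75, -5.22 and -5.53 in corn oil livers, where corn oil replicate 3 was not well above background. It gave 1.91 ± 0.22, so both probes pointed the same way and CCl4 replicate 2 was the highest animal on each.

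Fabp4 encodes a fatty acid binding protein of adipocytes, macrophages and capillary endothelium, which carries fatty acids inside the cell. It had the largest difference of the 8 genes. Its level was -1.58, -0.72 and -0.79 in CCl4 livers and -4.91, -4.70 and -5.75 in corn oil livers. In signal units this was 195.5, 411.2 and 384.4 in CCl4 livers and 20.0, 22.9 and 10.8 in corn oil livers, the last of which was not well above background. The lowest CCl4 animal, replicate 1, exceeded the highest corn oil animal by 3.12, while animals of a group spanned 0.86 in CCl4 livers and 1.06 in corn oil livers.

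The difference of Fabp4 was 4.09 ± 0.35, or 17.0-fold, and 8 of the 11939 genes had a larger one upward. The corn oil signals lay near background, and normexp correction with an offset of 50 gave a smaller difference of 2.26, or 4.79-fold. Within the first slide, which holds the lowest of the CCl4 animals, it was 3.54.

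Adipose tissue carries the same gene, and its markers differed in whether they were above background. Adipoq, the adipocyte hormone adiponectin, was not well above background on any of the 6 arrays on either of its probes, and neither was Lep. Of 8 adipocyte markers 4 were measured, and their summed relative signal was 11.2 to 14.3 in CCl4 livers and 15.6 to 18.2 in corn oil livers. Cfd, Cidec and Adrb3 among them were well above background on every array. The differences were -0.40 ± 0.16 for Cfd, -0.47 ± 0.21 for Cidec, -0.01 ± 0.29 for Adrb3 and 0.26 ± 0.41 for Retn. Endothelial markers had a summed signal of 32.8 to 39.4 in CCl4 livers and 40.6 to 47.7 in corn oil livers over 6 of 10 genes. Kdr, the brightest of them, weighs most in this sum and was at -0.38 ± 0.12 (limma, adjusted p = 0.171). The median difference of the 6 genes was 0.13. Cdh5 was at 0.15, Tek and Tie1 at 0.19, Lyve1 at 0.10, and Pecam1 at -0.01 ± 0.11 (limma, adjusted p = 0.977). The 5 markers of scar- or lipid-associated macrophages summed to 35.0 to 43.1 in CCl4 livers and 5.85 to 8.44 in corn oil livers, and 3 of them (Trem2, Gpnmb and Lgals3) rose in the fit over all genes. Trem2, a lipid-sensing receptor of such cells, changed by 4.33 ± 0.32 (limma, adjusted p = 0.0106). Lgals3, the brightest of the 5 markers, weighs most in their sum. Spp1 (1.46 ± 0.90, limma, adjusted p = 0.403) and Cd9 (0.19 ± 0.34, limma, adjusted p = 0.795) overlapped between the groups. General macrophage markers summed to 87.7 to 99.3 in CCl4 livers and 72.4 to 73.8 in corn oil livers over 8 of 8 genes, with 0 past the threshold in limma and Cd68 at 0.13 ± 0.13. In 3 of these 8, Itgam (1.99 ± 0.35, adjusted p = 0.0665), Lyz2 (0.96 ± 0.15, adjusted p = 0.0564) and Tyrobp (0.47 ± 0.13, adjusted p = 0.142), every CCl4 animal lay above every corn oil animal. Lower in CCl4 livers, with overlapping groups, were Cd14 (-0.69 ± 0.39), Adgre1 (-0.43 ± 0.24) and Fcgr1a (-0.10 ± 0.11). Csf1r was at 0.01 ± 0.24, and the median over the 8 genes was 0.07. Resident Kupffer cell markers summed to 131.7 to 167.5 in CCl4 livers and 159.9 to 194.6 in corn oil livers over 8 of 9 genes, with 0 past the threshold in limma and Clec4f at -0.35 ± 0.14 (adjusted p = 0.247). The groups did not overlap for Marco, a scavenger receptor, at 0.91 ± 0.24 (limma, adjusted p = 0.129). Nor did they for C1qc, a complement component, at -0.60 ± 0.15 (limma, adjusted p = 0.110). Marco was the only measured Kupffer cell marker that lay higher, and the median of these markers was -0.36. Vsig4 was at -0.50 ± 0.21, Cd163 at -0.42 ± 0.23, C1qa at -0.37 ± 0.15, C1qb at -0.28 ± 0.13 and Cd5l at -0.23 ± 0.28, with overlapping groups. Apart from Adipoq, Pecam1, Trem2, Cd68 and Clec4f, the single markers were named after their values were seen. The part of these cell types in the values of the 8 genes was not tested.

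Pla2g7 encodes the secreted platelet-activating factor acetylhydrolase, also called lipoprotein-associated phospholipase A2, which macrophages make and which cleaves oxidised phospholipids. Its level was 0.34, 0.42 and 0.27 in CCl4 livers and -2.49, -2.20 and -2.05 in corn oil livers. The CCl4 animals lay within 0.15 of each other, the corn oil animals within 0.45, and the groups were 2.32 apart at their nearest. In signal units it had 740.0, 902.9 and 803.8 in CCl4 livers and 106.3, 129.6 and 141.1 in corn oil livers, well above background on every array. The difference was 2.59 ± 0.14, or 6.01-fold, and 40 genes had a larger one upward. It was 2.58 within the first slide, 2.46 to 2.69 when 1 animal was left out, and 2.11 under normexp, so of the 3 large differences it moved least.

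The Pla2g7 promoter is shown because this gene had the steadiest of the large differences; the motifs searched, listed with those of Abca1, were not found in it, so it has no capitals. The window is chr9:24901698-24901997 of GRCr8 (RefSeq), minus strand, 250 bases before to 50 bases after the start.
Pla2g7: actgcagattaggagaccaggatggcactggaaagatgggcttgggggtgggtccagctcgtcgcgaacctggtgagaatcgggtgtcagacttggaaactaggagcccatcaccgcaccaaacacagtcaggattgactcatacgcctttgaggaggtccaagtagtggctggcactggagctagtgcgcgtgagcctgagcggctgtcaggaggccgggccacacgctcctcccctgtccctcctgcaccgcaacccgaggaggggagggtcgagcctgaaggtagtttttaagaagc

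Plin2 encodes perilipin 2, the coat protein of lipid droplets in hepatocytes and foam cells. It was at 6.78, 6.62 and 6.73 in CCl4 livers and at 6.97, 6.78 and 6.95 in corn oil livers. The highest CCl4 animal, replicate 1, lay 0.0011 below the lowest corn oil animal, replicate 2, while CCl4 livers spanned 0.17 and corn oil livers 0.18, so the separation was far smaller than the spread. The difference was -0.19 ± 0.11, and -0.12 within the first slide. It stayed negative in every setting tried, between -0.25 and -0.08. Over all genes tested the median difference was -0.05.

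Of the efflux transporters, Abcg1 stood apart between the groups and Abca1 overlapped. Abcg1, which exports cholesterol to high-density lipoprotein, was at 2.09, 2.15 and 2.23 in CCl4 livers and at 1.59, 1.48 and 1.74 in corn oil livers. The groups did not overlap and were 0.35 apart at their nearest, against a range of 0.14 in CCl4 livers and 0.26 in corn oil livers. The difference was 0.55 ± 0.11, or 1.47-fold, 0.49 within the first slide, and 0.49 to 0.62 when 1 animal was left out. Under normexp it was 0.67, or 1.59-fold.

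Abca1, which loads cholesterol onto lipid-poor apolipoprotein A-I, was at 1.14, 0.98 and 1.24 in CCl4 livers and at 0.81, 0.62 and 1.02 in corn oil livers. Corn oil replicate 3 lay above CCl4 replicate 2, so the groups overlapped. The difference was 0.30 ± 0.14, or 1.23-fold, and 0.32 within the first slide. For both transporters CCl4 replicate 3 was the highest CCl4 animal and corn oil replicate 2 the lowest corn oil animal.

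The promoter of Abca1 is shown because it holds an LXR element; capitals mark motifs. In the window (chr5:72596424-72596723 of GRCr8, minus strand, 250 bases before to 50 bases after the start given by RefSeq) these are, in order, a GC box (GGGCGG), an E-box (CACGTG), the LXR element and a TATA box (TATAAA). The LXR element was searched as TGACCG, any 4 bases and TAACC, a pattern modelled on the element known from the human ABCA1 promoter.
Abca1: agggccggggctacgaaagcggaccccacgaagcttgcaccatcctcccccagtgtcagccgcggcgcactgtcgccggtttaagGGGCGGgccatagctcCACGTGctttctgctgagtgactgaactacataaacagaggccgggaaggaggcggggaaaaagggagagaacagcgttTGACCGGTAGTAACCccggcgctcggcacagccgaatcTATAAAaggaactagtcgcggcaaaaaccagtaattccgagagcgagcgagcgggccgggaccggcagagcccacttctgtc

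RefSeq promoter windows (GRCr8) matched 4 of the 8 genes, with 5 windows in all. Each motif was searched on both strands, and none of those found overlapped another. The LXR element lay 70 to 56 bases before the Abca1 start and was found in 3 of 33365 windows of the same length. Because the pattern was modelled on the human ABCA1 element, nothing is read from its presence here or its rarity elsewhere. An E-box and a GC box were also found in the upstream one of 2 Plin2 windows, and a TATA box sequence, on the opposite strand, in the Cd36 window. The E-box was in 6.43% of all windows, the GC box in 33.1% and the TATA box in 14.2%. The nuclear receptor half-site AGGTCA, present in 16.2% of all windows, was in 0 of the 5, and so were its direct repeats spaced by 1 and by 4 bases. A match is a description of letters, and the absence of one says nothing of a factor's binding elsewhere.

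**Figure D3:**
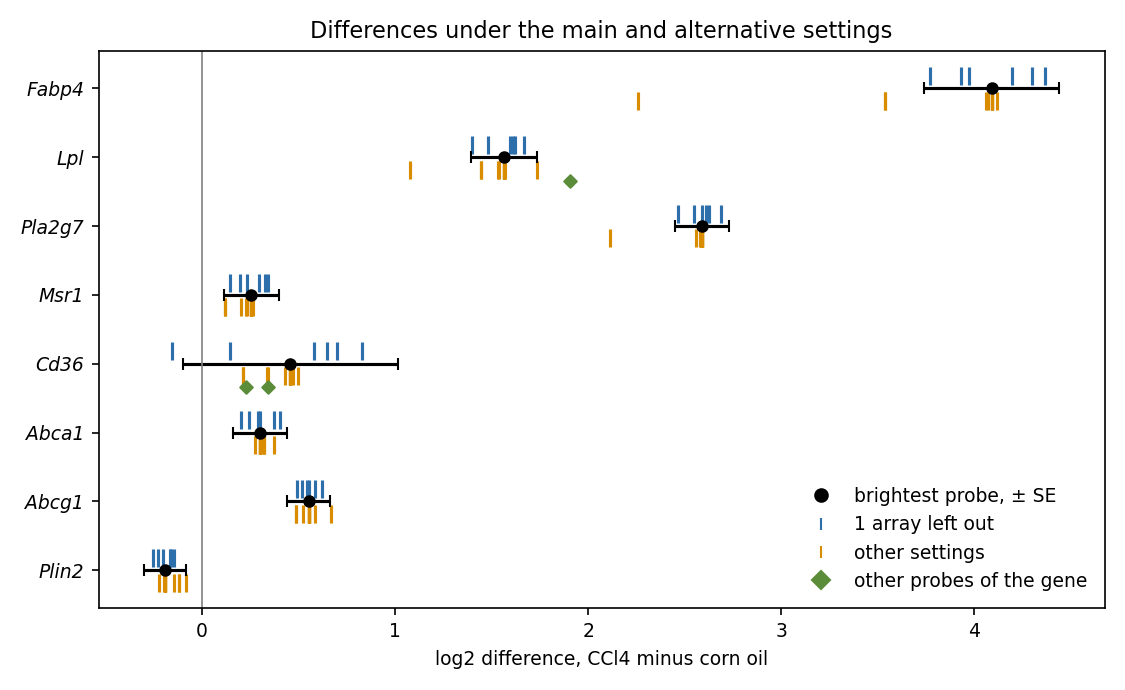
Log2 difference of each gene, CCl4 minus corn oil (horizontal axis), on its brightest probe with its standard error (black), with 1 array left out (blue ticks), under the other settings (orange ticks) and on the gene's other probes (green diamonds). Fabp4 ran from 2.26 under normexp to 4.36, Cd36 crossed 0 without corn oil replicate 2, and the other genes stayed on their side of 0.

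Genes around the members were followed in 7 lists that leave the 8 members out. Of 115 genes 98 were tested, 2 rose and 0 fell in limma (adjusted p below 0.05), against 0.561% of all genes higher and 0.0754% lower. At an unadjusted p below 0.05 there were 11 higher and 19 lower genes of the 98, against 1188 higher and 1166 lower of all 11939. The groups did not overlap for 11 of the 98 genes with higher and 23 with lower values in CCl4 livers, against 11.5% and 15.9% of all genes. The 11 were near the share over all genes and the 23 were above it. The 19 lower genes at an unadjusted p below 0.05 were likewise above their share. Whether the lists differ from other genes was not tested. The lists' medians ran from -0.35 to 0.49.

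Of 11 other scavenger and lipoprotein receptors tested 1 rose, 9 had a positive difference, and the median was 0.49. Cxcl16, a membrane chemokine that also binds oxidised lipoprotein, was at 1.81, 1.82 and 1.36 in CCl4 livers and at -0.10, 0.26 and -0.05 in corn oil livers. It rose by 1.63 ± 0.17, or 3.09-fold (limma, adjusted p = 0.0252), and its adjusted p was 0.0142 to 0.188 over 18 alternatives, 11 of which kept the call. The settings without the call included the first slide alone, the slide as a fixed block, and leaving out CCl4 replicate 1 or 2 or corn oil replicate 1 or 3.

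Olr1, the lectin-like receptor for oxidised low-density lipoprotein, was at -2.33, -2.25 and -2.32 in CCl4 livers and at -6.23, -4.42 and -6.81 in corn oil livers, where it was well above background on 1 of 3 arrays. The difference was 3.52 ± 0.58 (adjusted p = 0.0618). It passed with a variance trend, under normexp, where it was 1.18, and without corn oil replicate 2, at 4.22 (adjusted p = 0.00473). Its adjusted p was 0.00473 to 0.302 over 17 alternatives. Vldlr, a receptor for triglyceride-rich lipoproteins, was likewise above background on 1 corn oil array and differed by 2.27 ± 0.62 (adjusted p = 0.133). Scarb1, the receptor for high-density lipoprotein, was at -0.43 ± 0.15 (adjusted p = 0.194), with the groups apart.

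Among genes that bind, import and activate fatty acids, 1 of 16 rose and the median was -0.06. Acsl3, an acyl-CoA synthetase of the endoplasmic reticulum and lipid droplets, was at 0.58, 0.47 and 0.64 in CCl4 livers and at -0.59, -1.37 and -1.32 in corn oil livers. It rose by 1.66 ± 0.22, or 3.16-fold (limma, adjusted p = 0.0441), and the call held in 9 of 18 alternatives (adjusted p = 0.0175 to 0.253). The settings without the call included the first slide alone, the slide as a fixed block, no filter on dim probes, and leaving out any 1 animal other than corn oil replicate 1.

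The relatives of Fabp4 did not move together. Fabp7, the brain-type member of the family, was at 3.84, 5.00 and 4.94 in CCl4 livers and at 6.34, 6.90 and 7.13 in corn oil livers. All 3 CCl4 animals lay below all corn oil animals, and the difference was -2.20 ± 0.36 (adjusted p = 0.0622), past the threshold in 4 of 18 alternatives, among them normexp (-2.16). Fabp5, the epidermal type, was at 0.94 ± 0.36 (adjusted p = 0.227), and Fabp1, the liver type, at -0.22 ± 0.13 (adjusted p = 0.394). Slc27a3, a fatty acid transporter, was at 0.44 ± 0.19 (adjusted p = 0.259), and Slc27a5, the liver's bile acyl-CoA synthetase, at -0.83 ± 0.26 (adjusted p = 0.166).

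Around Lpl, the genes of its partners and of other lipases did not pass the threshold. None of 15 tested genes passed in limma, and 5 were lower at an unadjusted p below 0.05. All 15 had a negative difference, with a median of -0.35. Over all 11939 genes 6826 had a negative difference, and the median was -0.05. The 7 hepatocyte markers had a median of -0.24, and 5 of them lay lower without overlap. Quantile normalization moved Apoc1 from -0.22 to -0.05 and Apoc3 from -0.39 to -0.23. It moved Apoa5 to -0.56 and Angptl4 to -0.45. G0s2, an inhibitor of adipose triglyceride lipase, was at -0.81 ± 0.24 (adjusted p = 0.155) and passed without CCl4 replicate 3, at -1.11 (adjusted p = 0.0237; range over the alternatives 0.0237 to 0.376). Apoa5, an activator of triglyceride breakdown by lipoprotein lipase, was at -0.68 ± 0.15 (adjusted p = 0.0870). Angptl4, an inhibitor of lipoprotein lipase, was at -0.50 ± 0.12 (adjusted p = 0.101), and Lipa, the lysosomal acid lipase, at -0.21 ± 0.11 (adjusted p = 0.338). Gpihbp1, which anchors lipoprotein lipase to capillaries, was not well above background on any array.

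Around Abca1 and Abcg1, 0 of 18 genes of cholesterol efflux, storage and trafficking passed in limma, with 2 higher and 5 lower at an unadjusted p below 0.05 and a median of 0.04. Abcg5 and Abcg8, the paired transporters that send sterols into bile, were lower without passing. Abcg5 was at 1.90, 0.67 and 1.98 in CCl4 livers and at 2.56, 2.97 and 3.30 in corn oil livers (difference -1.42 ± 0.39, adjusted p = 0.132). Abcg8 was at -2.08 ± 0.57 (adjusted p = 0.132) and well above background on 1 of 3 CCl4 arrays. Nceh1, which hydrolyses cholesteryl ester in macrophages, was at 0.56 ± 0.19 (adjusted p = 0.192), and Ch25h, which makes an oxysterol, at 0.77 ± 0.22 (adjusted p = 0.148). Apoe, an apolipoprotein of macrophages and hepatocytes, was at -0.26 ± 0.11 (adjusted p = 0.253).

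Around Plin2, 0 of 11 lipid droplet genes passed in limma, with 1 higher and 3 lower at an unadjusted p below 0.05 and a median of -0.30. Fitm2, which acts in droplet formation, was at -0.48 ± 0.13 (adjusted p = 0.133), and Hsd17b11, a droplet-bound dehydrogenase, at -0.30 ± 0.10 (adjusted p = 0.193). No probe was matched to Plin1. Around Pla2g7, 0 of 11 genes of platelet-activating factor and oxidised phospholipid metabolism passed in limma, with 2 lower at an unadjusted p below 0.05 and a median of -0.04. Pon3, a paraoxonase, was at -0.46 ± 0.14 (adjusted p = 0.158).

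Among nuclear receptors and regulators of lipid genes, 0 of 16 passed in limma, with 1 lower at an unadjusted p below 0.05 and a median of -0.15. Nr1h3, which encodes LXR alpha, was at -0.12 ± 0.13 (adjusted p = 0.639). Pparg, a regulator of Fabp4, Lpl and Cd36 in adipocytes and macrophages, was at -0.45 ± 0.21 (adjusted p = 0.297), lower in all 3 CCl4 animals. Cebpa was at -0.47 ± 0.16 (adjusted p = 0.192).

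**Figure D4:**
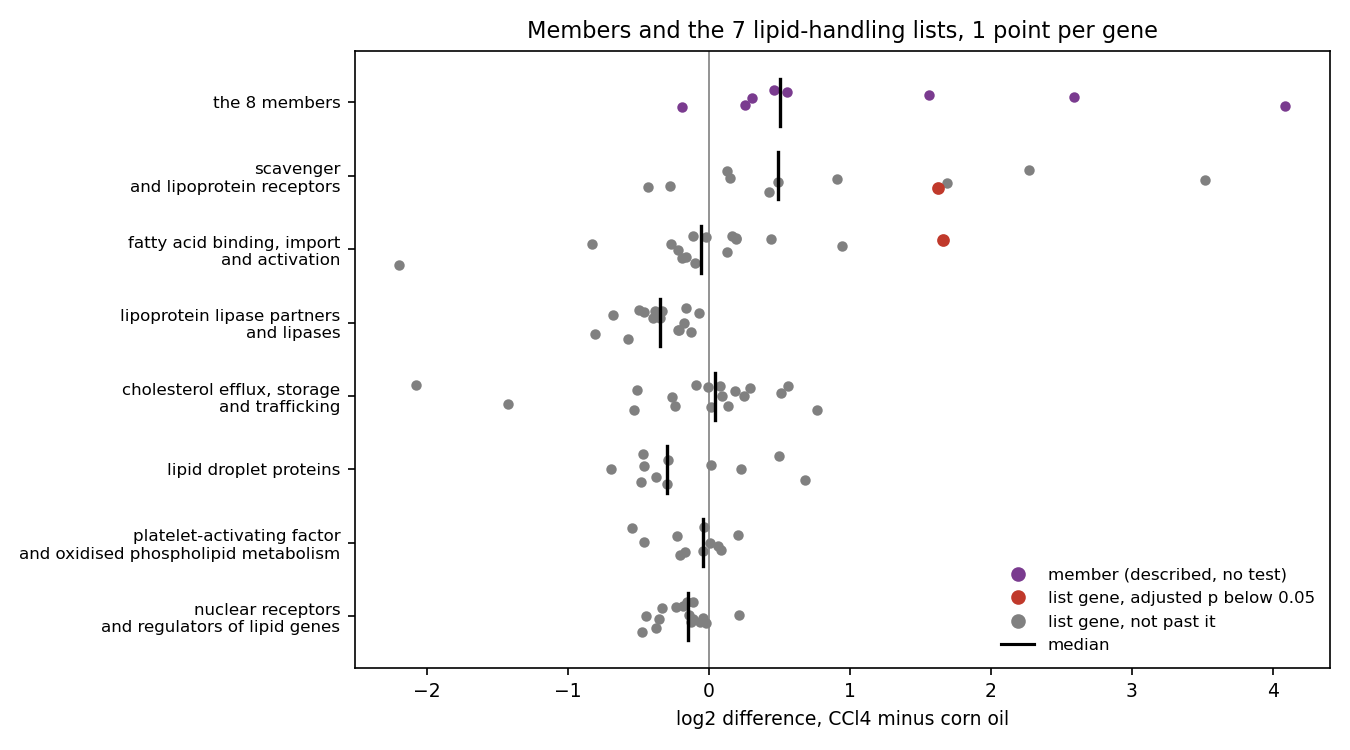
Log2 difference, CCl4 minus corn oil (horizontal axis), of the 8 members (purple) and of the tested genes of 7 lists (1 point per gene; red where the adjusted p was below 0.05, grey otherwise; black lines are medians; vertical scatter within a row has no meaning). Cxcl16 and Acsl3 are the red points, and the lipase list lies wholly below 0.

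Genes whose profile over the 6 arrays was most like a member's were sought among 11094 other genes well above background on all arrays, by the root mean square (RMS) difference of log2 profiles centred on their means. Fabp4 was left out, since it was not above background on every array. For Pla2g7 these were Grin2c, a glutamate receptor subunit (RMS difference 0.09), and Lgals3, a lectin of activated macrophages (0.17). Grin2c was at 0.41, 0.39 and 0.25 in CCl4 livers and at -2.36, -2.07 and -1.82 in corn oil livers. For Lpl they were LOC690045 (0.09) and Tmsb10, an actin-binding thymosin (0.14).

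For Cd36 they were Kcnd2, a potassium channel gene (0.16), and Bmp7, a growth factor gene (0.21), both lowest in corn oil replicate 2. Kcnd2 was at -3.53, -2.72 and -3.45 in CCl4 livers and at -2.98, -4.70 and -2.86 in corn oil livers. For Abcg1 they were Gbe1, the glycogen branching enzyme (0.07), and Dab2, an endocytic adaptor (0.07). For Abca1 they were Zbtb24 (0.06) and Tmem134 (0.07), and for Msr1 Tsc22d2 (0.04) and Blvra, a biliverdin reductase (0.05). For Plin2 they were Metap1, an aminopeptidase (0.01), and Ddx5, an RNA helicase (0.02). With 6 arrays, members with small differences have many near neighbours, and these are descriptions.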

How the data were processed

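Labelled cRNA from 0.2 µg of liver RNA per rat was hybridised to single-colour Agilent arrays, per the labels' protocols. Per the file headers, the deposited intensity values are background-corrected processed signals of Agilent Feature Extraction 10.7.1.1; the submitters' processing notes name 10.7. The authors' value table holds a linear ratio, which the values show to be the processed signal over 583.3 to 676.5 units per array, near its 75th percentile; no label records that step. Its column medians were 0.103 to 0.110. Scale and centring were thus inferred from the values.

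Of 61537 probes 28206 (45.8%) matched 1 symbol by unversioned RefSeq accession in a GRCr8 gene table, 0 matched several and 33331 none. The array's design names rn4, so only the promoter table's own coordinates are given. The 1439 control spots and 26 probes with an outlier flag were left out; each probe had 1 spot. Levels are log2 signals minus the 75th percentile of their array. A gene's brightest probe was tested where the scanner's flag put a probe above background on 3 or more of 6 arrays. Groups were fitted with limma 3.58.1 (R 4.3.3; lmFit and eBayes, two-sided; Benjamini-Hochberg over all genes). A gene's other probes take their SE from the same fit over all probes. Precision is limited by 3 arrays per group; the labels describe separate animals.

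The members and lists were chosen with earlier results of these data known. The genes named beside the members are all list genes past the threshold, up to 2 per direction and list with the largest difference among those whose groups did not overlap, fixed genes such as Apoe and Pparg, and the 2 nearest profiles per member. A gene that this rule names is not reported here. Other genes named as examples, G0s2's call without 1 animal among them, were chosen after their values were seen. Alternatives were other scalings, normexp with an offset of 50 (on spot medians, as the files used here hold no spot means), the authors' values, other filters, probe means, a variance trend, a block for slide or for replicate number, and each array left out in turn. Python 3.11.15, numpy 2.4.6, pandas 2.3.3, matplotlib 3.10.9 and statmod 1.5.0 were also used.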

Additional observations from a re-analysis of the deposited data

How the results depend on the processing

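Of all differences of the 8 members, that of Cd36 without corn oil replicate 2 was the one that changed sign (-0.15; range with 1 array left out -0.15 to 0.83). Normexp gave smaller differences for Fabp4 (2.26), Lpl (1.08), Pla2g7 (2.11) and Plin2 (-0.08) and a larger one for Abcg1 (0.67). Fabp4 has no value with the filter on all 6 arrays. Among all genes tested, 76 passed as reported, 215 under normexp, 139 with the filter on all 6 arrays, 156 with a variance trend, 4 with slide as a fixed block, 0 within the first slide (1598 at an unadjusted p below 0.05) and 10 with the replicate number as a block, which left 1 of the 8 members called (Pla2g7). Leaving out 1 array gave 2 (without CCl4 replicate 2) to 241 (without CCl4 replicate 3). The cause of these shifts was not tested. Deviations of same-numbered animals correlated at -0.05, 0.16 and 0.02, and those of other pairs at -0.18 to 0.15. CCl4 replicate 1 correlated best with corn oil replicate 3 (0.15). The deviations of 3 animals from their mean are tied to each other, so these values cannot settle whether the replicate number pairs the animals. The receptor list had 2 calls under normexp and a variance trend, 1 with slide as a random block, 0 with slide as a fixed block, with the replicate number as a block and within the first slide, and 0 to 2 with 1 array left out. The fatty acid list had 2 calls with median centring, normexp, the filter on all 6 arrays and a variance trend, 1 with slide as a random block, 0 without a filter, with slide as a fixed block, with the replicate number as a block and within the first slide, and 0 to 1 with 1 array left out. The lipase list had 0 to 1 with 1 array left out (G0s2, without CCl4 replicate 3). The other 4 lists had 0 calls in limma under each setting. Signals near background limit the size of the differences of Fabp4, Olr1, Vldlr and Abcg8.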

Other observations

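Corn oil replicate 2, the animal with the lowest Cd36, also stood apart from the other corn oil animals in several list genes, in both directions. Fabp5 was at 4.40, 3.92 and 3.88 in CCl4 livers, and at 3.92 in corn oil replicate 2, against 2.70 and 2.74 in corn oil replicates 1 and 3. Olr1 was at -4.42 in corn oil replicate 2, against -6.23 and -6.81. It was well above background on 1 of the 3 corn oil arrays, so these values lie near background. Cidea, a lipid droplet gene, went the other way, at 2.52 in corn oil replicate 2, against 3.17 and 3.48 in the others. These genes were chosen after their values were seen, and the source of the difference between animals was not tested.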
